A study of Macaca mulatta with 14 samples.

Results

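The epithelial-mesenchymal transition factors SNAI1, SNAI2, TWIST1, TWIST2, ZEB1 and ZEB2, and the mesenchymal regulators PRRX1, RUNX1, RUNX2 and FOXF1, were followed while fibroblasts of the rhesus monkey, Macaca mulatta, were converted to neuroepithelial stem cells (NESCs). The 10 genes were chosen by name, and all 10 were found among the 33688 gene loci kept, 9 under their own symbol and RUNX2 through its gene number, as LOC703331. RNA was sequenced from 7 cell lines with 2 libraries each (14 libraries). The earlier lines are RF-P3, ear skin fibroblasts of 2 male fetuses of embryonic day 65 in serum medium, and RF-iN-d5 and RF-iN-d11, the same cells infected with retroviruses for OCT4, SOX2 and KLF4 and collected on day 5 and day 11. The NESC lines are the colonies at passage 6 (CHIR-P6) and passage 23 (CHIR-P23), and C8-P7 and A9-P7, each grown from a single cell of the passage 23 colonies. In the labels, the induction medium, given from day 3 after infection, and the NESC medium both held 3 µM CHIR99021 (a GSK3 inhibitor), 5 µM SB431542 (an inhibitor of TGF-β type I receptors) and 10 ng/ml bFGF. The methods of the study do not list CHIR99021 in the NESC medium. The RF-iN cells also received 5 µM Y27632 until day 5 and, in the labels, 1 mM valproic acid until day 7, and the NESC lines received 1000 U/ml hLIF. The fibroblasts received none of these agents, so the factors, the medium and the time in culture cannot be told apart along the series.

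The transition factors are DNA-binding proteins best known as repressors of epithelial junction genes. SNAI1, SNAI2, ZEB1 and ZEB2 are zinc finger proteins that bind E-box sequences, and TWIST1 and TWIST2 are basic helix-loop-helix (bHLH) proteins that bind as dimers with E proteins. PRRX1 is a homeodomain factor of limb and face mesenchyme, RUNX1 and RUNX2 bind DNA with the shared partner CBFB and are known for blood and bone development, and FOXF1 is a forkhead factor of lung and gut mesenchyme. Several of these genes also act outside connective tissue: ZEB1 and ZEB2 are expressed in neural progenitors, and SNAI2, TWIST1 and ZEB2 in the neural crest.

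Values are FPKM (fragments scaled to transcript length and to the mapped fragments of a library), summing to 571041 to 697718 per library, and the relative depth of the libraries ranged from 1 to 5.31. Paired libraries differed by less than counting noise gives independent libraries, so the mean of a pair entered as 1 sample. The study calls the libraries of a line biological replicates. The comparison of the 4 NESC lines with the 3 earlier lines used limma on log2(FPKM + 1), a scale that understates the change of low genes, over the 15024 genes that reached 1 FPKM in 2 or more libraries. Calls needed an adjusted p (Benjamini-Hochberg, over all these genes) under 0.05 together with a log2 difference of 1 or more in size. The lines are successive stages, so the p-values measure the spread between lines and not between independent conversions. Of 9 fibroblast markers, all 9 were lower in the NESC lines, and their summed level was 24.6 to 89.8 FPKM in the NESC lines, against 4086 to 7215 FPKM in the earlier lines. All 9 neuroepithelial markers were higher, with fewer called when a line was left out (5 without RF-iN-d5, 8 without CHIR-P6 and 6 or 7 without any other), and in CHIR-P6 SOX3 stood at 0.05 FPKM and SOX1 at 0.275 FPKM. In bulk RNA, fewer cells that express a gene and less RNA per cell cannot be told apart.

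Of the 10 factors, 7 fell in the NESC lines, none rose, and SNAI1, ZEB1 and ZEB2 were not called. PRRX1, TWIST2, SNAI2, RUNX2, TWIST1, RUNX1 and FOXF1 were each below every earlier line in all 4 NESC lines, and ZEB2 was above every earlier line. Among all 15024 genes, 13.2% were called lower and 7.57% higher, 24.7% lay below every earlier line in all NESC lines, and 21.1% lay above. The median log2 difference was -3.45 for the 10 factors and -0.02 for all genes. At an unadjusted p under 0.05, 1 of the 10, ZEB2, was higher and 7 were lower.

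**Figure D1:**
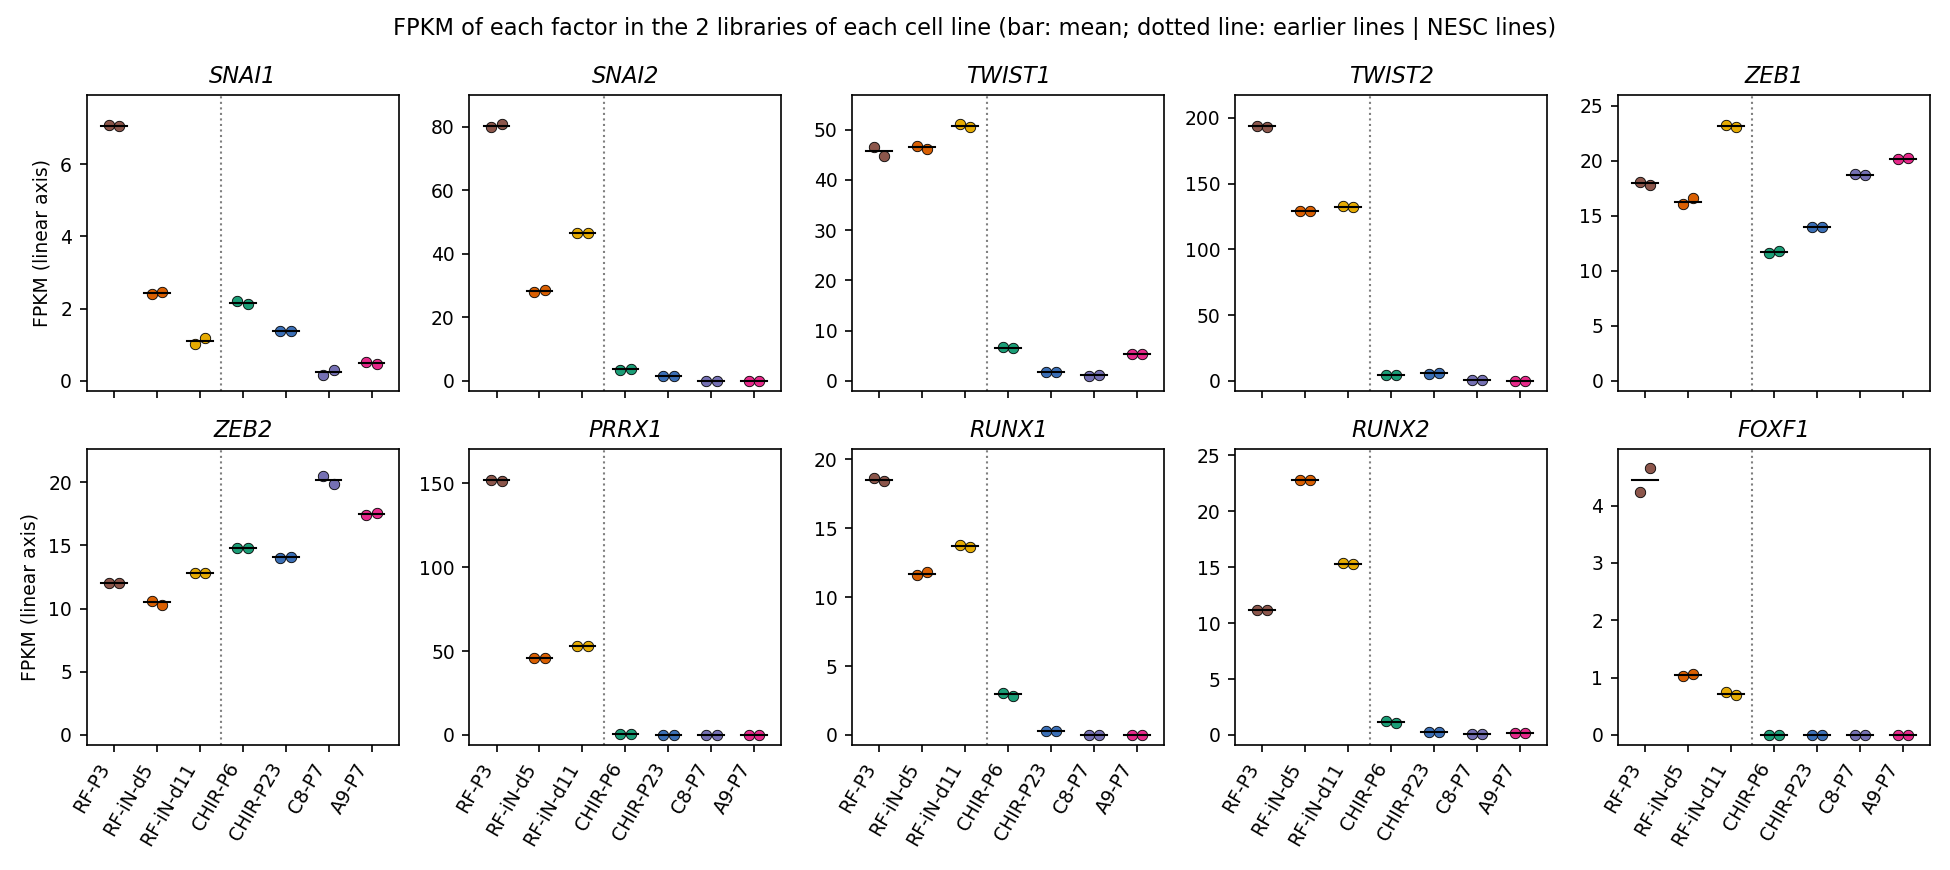
FPKM of each of the 10 factors (linear axis, scaled to each gene) in both libraries of the 7 lines, in the order of the conversion. Points are libraries, bars are their mean and the dotted line parts the earlier lines from the NESC lines. Between RF-iN-d11 and CHIR-P6, TWIST2 drops to 4.67 FPKM and PRRX1 to 0.319 FPKM, while ZEB1 and ZEB2 stay between 10.5 and 23.2 FPKM in every line.

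SNAI2, which encodes the Slug repressor, was high in fibroblasts and close to 0 in the single-cell colonies. Its 2 libraries held 80 and 80.9 FPKM in RF-P3, 28 and 28.7 on day 5, and 46.6 and 46.7 on day 11. They held 3.51 and 3.69 FPKM in CHIR-P6, 1.68 and 1.62 in CHIR-P23 and 0.0165 in both A9-P7 libraries, and SNAI2 was listed at 0 in both C8-P7 libraries. Every NESC library was thus far below every earlier library, and within the NESC lines the colonies were lowest. The log2 difference between NESC and earlier lines was -4.69 (SE 0.60, limma adjusted p = 0.0013).

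SNAI1, which encodes Snail, had the lowest levels of the transition factors in fibroblasts and a different course. RF-P3 had 7.1 and 7.05 FPKM, RF-iN-d5 had 2.42 and 2.47, RF-iN-d11 had 1.03 and 1.18, and CHIR-P6 again had 2.2 and 2.14. In CHIR-P23 it had 1.39 FPKM in both libraries, in C8-P7 0.157 and 0.313, and in A9-P7 0.509 and 0.472. CHIR-P6 and CHIR-P23 lay above RF-iN-d11, so the groups overlapped. SNAI1 had a mean of 1.07 ± 0.886 FPKM over the NESC lines (SD, n = 4) and 3.54 ± 3.13 FPKM over the earlier lines (SD, n = 3), with a log2 difference of -1.01 (SE 0.51, limma adjusted p = 0.15).

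TWIST2 was the highest of the 10 factors in all 3 earlier lines. It had 194 and 193 FPKM in RF-P3, 129 in both RF-iN-d5 libraries and 133 and 132 in RF-iN-d11. In the NESC lines it had 4.66 and 4.68 FPKM in CHIR-P6, 5.42 and 5.81 in CHIR-P23, 0.466 and 0.464 in colony C8-P7 and 0.192 in both A9-P7 libraries. The groups did not overlap, and the colonies were again below the lines from which they were grown. TWIST2 had a mean of 2.74 ± 2.81 FPKM over the NESC lines (SD, n = 4) and 152 ± 36.2 FPKM over the earlier lines (SD, n = 3), with a log2 difference of -5.72 (SE 0.63, limma adjusted p = 7.5e-04).

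TWIST1, its close relative in mesoderm and neural crest, was the steadiest of the called factors before the NESC stage. It had 46.6 and 44.8 FPKM in RF-P3, 46.8 and 46.2 on day 5 and 51.1 and 50.5 on day 11, and the libraries of RF-P3 and RF-iN-d5 overlapped. It had 6.71 and 6.56 FPKM in CHIR-P6, 1.72 and 1.84 in CHIR-P23, 1.05 and 1.24 in colony C8-P7 and 5.4 and 5.41 in A9-P7. TWIST1 was therefore higher in A9-P7 than in the parental CHIR-P23, whereas TWIST2 was lower. The mean was 3.74 ± 2.69 FPKM over the NESC lines (SD, n = 4) and 47.7 ± 2.73 FPKM over the earlier lines (SD, n = 3), with a log2 difference of -3.56 (SE 0.44, limma adjusted p = 0.0012). The ratio of TWIST2 to TWIST1 FPKM was 4.24, 2.78 and 2.61 in RF-P3, RF-iN-d5 and RF-iN-d11, and 0.704, 3.15, 0.405 and 0.0354 in CHIR-P6, CHIR-P23, colony C8-P7 and colony A9-P7.

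ZEB1 and ZEB2 were above 10 FPKM in all 14 libraries. For ZEB1, the libraries of RF-P3 had 18.1 and 17.8 FPKM, those of RF-iN-d5 had 16.1 and 16.6, and those of RF-iN-d11 had 23.3 and 23.1. CHIR-P6 had 11.6 and 11.8 FPKM, CHIR-P23 had 14 in both libraries, C8-P7 had 18.8 and 18.7, and A9-P7 had 20.2 and 20.3. Its lowest line was thus CHIR-P6 and its highest RF-iN-d11, with both colonies above the fibroblasts. ZEB1 had a mean of 16.2 ± 3.99 FPKM over the NESC lines (SD, n = 4) and 19.2 ± 3.6 FPKM over the earlier lines (SD, n = 3), with a log2 difference of -0.25 (SE 0.22, limma adjusted p = 0.39).

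ZEB2, the SMAD-interacting member of the pair, had 12 FPKM in both RF-P3 libraries, 10.6 and 10.3 in RF-iN-d5 and 12.8 in both RF-iN-d11 libraries. CHIR-P6 had 14.8 FPKM in both libraries, CHIR-P23 had 14 and 14.1, C8-P7 had 20.5 and 19.9, and A9-P7 had 17.4 and 17.6. All NESC libraries were above all earlier libraries. The mean was 16.6 ± 2.8 FPKM over the NESC lines (SD, n = 4) and 11.8 ± 1.18 FPKM over the earlier lines (SD, n = 3), and the log2 difference of 0.46 (SE 0.16, limma adjusted p = 0.059) passed neither limit of the call.

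PRRX1 was the second most abundant factor in fibroblasts, after TWIST2, and had the largest log2 difference of the 10. It had 152 and 151 FPKM in RF-P3, 46 in both RF-iN-d5 libraries and 52.7 and 53.1 in RF-iN-d11. It had 0.309 and 0.329 FPKM in CHIR-P6, 0.0613 and 0.0841 in CHIR-P23, 0.0685 and 0.0682 in colony C8-P7, and 0.0137 and 0.0319 in colony A9-P7. All NESC libraries were under 1 FPKM, and the libraries of CHIR-P23 and C8-P7 overlapped. Paired libraries differ by less than counting noise, so their spread does not tell whether lines differ at such levels. PRRX1 had a mean of 0.121 ± 0.134 FPKM over the NESC lines (SD, n = 4) and 83.5 ± 59.1 FPKM over the earlier lines (SD, n = 3), a ratio of earlier to NESC means of 692, with a log2 difference of -6.03 (SE 0.39, limma adjusted p = 9.2e-05).

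FOXF1 was low even in fibroblasts. It had 4.24 and 4.65 FPKM in RF-P3, 1.03 and 1.07 on day 5 and 0.752 and 0.693 on day 11, and was listed at 0 in all 8 NESC libraries. Most of its level was therefore lost before the NESC stage. The log2 difference was -1.42 (SE 0.39, limma adjusted p = 0.024), and this call was lost without RF-P3 (-0.91, under the minimum size), and without CHIR-P23 or either colony in turn (-1.42, adjusted p of 0.059 to 0.06). FPKM values of 0 are given per library here because 2 of 79 ribosomal protein loci are also at 0 in all libraries.

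RUNX1, a master regulator of blood formation that is also expressed in mesenchyme, had 18.6 and 18.4 FPKM in RF-P3, 11.6 and 11.8 on day 5 and 13.8 and 13.6 on day 11. It had 3.06 and 2.85 FPKM in CHIR-P6, 0.322 and 0.294 in CHIR-P23 and 0.0146 in both A9-P7 libraries, and was listed at 0 in both C8-P7 libraries. CHIR-P6 stood apart from the other NESC lines, at an intermediate level. The log2 difference was -3.35 (SE 0.49, limma adjusted p = 0.0022). The defining blood cell markers PTPRC, SPI1 and GATA1 were under 1 FPKM in every line, while the summed level of 8 haematopoietic markers was 0.0621 to 0.317 FPKM in the NESC lines and 37.8 to 113 FPKM in the earlier lines, with 3 of 5 tested called lower (GATA2, ITGB2 and CD34). The part of these genes in the RUNX1 difference was not tested.

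RUNX2, the master regulator of bone formation, was the only factor of the 10 with its highest level in RF-iN-d5. It had 11.2 FPKM in both RF-P3 libraries, 22.8 in both RF-iN-d5 libraries and 15.4 and 15.3 in RF-iN-d11. It had 1.21 and 1.07 FPKM in CHIR-P6, 0.265 and 0.275 in CHIR-P23, 0.13 and 0.108 in colony C8-P7, and 0.203 and 0.182 in colony A9-P7. The groups did not overlap, and CHIR-P6 was again the highest NESC line. RUNX2 had a mean of 0.43 ± 0.477 FPKM over the NESC lines (SD, n = 4) and 16.4 ± 5.88 FPKM over the earlier lines (SD, n = 3), with a log2 difference of -3.61 (SE 0.32, limma adjusted p = 3.0e-04).

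**Figure D2:**
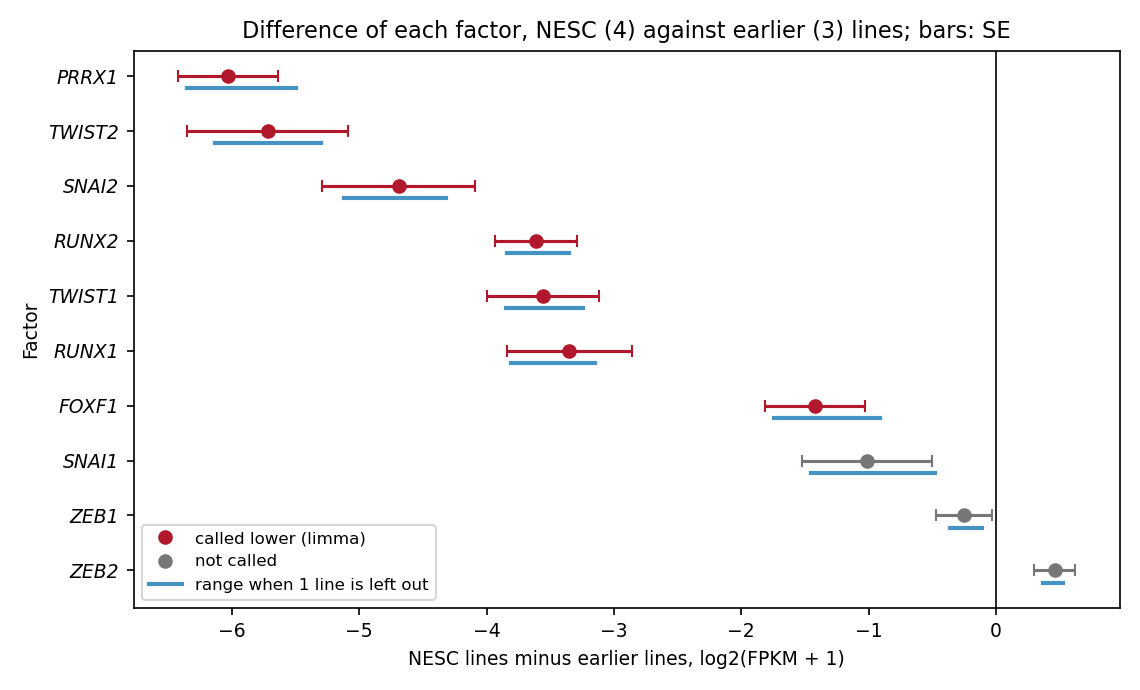
Difference of each factor between the 4 NESC and the 3 earlier lines on the log2(FPKM + 1) scale, with its SE (bars), and the range of the difference when each line is left out in turn (blue lines). The 7 factors in red were called lower, from -6.03 for PRRX1 to -1.42 for FOXF1, and SNAI1, ZEB1 and ZEB2 in grey were not called.

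The factors did not fall at the same step. With 1 sample per line, the steps are descriptions with no test. A factor is counted where it differed by 2-fold or more on the log2(FPKM + 1) scale, while percentages of a level are of FPKM itself, so a low gene can be under 50% of its earlier level and not be counted. From RF-P3 to RF-iN-d5, 4 of the 10 were lower (SNAI1, SNAI2, PRRX1 and FOXF1) and none was higher, against 8.42% of all genes lower and 9.37% higher. RF-iN-d5 had 30.3% of the RF-P3 level of PRRX1, 23.6% of FOXF1, 35.2% of SNAI2 and 34.6% of SNAI1, but 102% of TWIST1 and 66.9% of TWIST2. RUNX2 was higher in RF-iN-d5, at 204% of RF-P3, which is a log2 difference of 0.97 and just under the limit.

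From RF-iN-d5 to RF-iN-d11 none of the 10 moved by 2-fold on the log2(FPKM + 1) scale, against 2.52% of all genes lower and 2.85% higher. SNAI2 was partly restored, at 165% of its RF-iN-d5 level, and ZEB1 reached 142%, while SNAI1, at a low level, was at 45.1%. The largest share fell between RF-iN-d11 and CHIR-P6, where 6 of 10 were lower (SNAI2, TWIST1, TWIST2, PRRX1, RUNX1 and RUNX2) and none higher, against 13.1% of all genes lower and 8.49% higher. CHIR-P6 had 0.603% of the RF-iN-d11 level of PRRX1, 3.53% of TWIST2, 7.43% of RUNX2, 7.71% of SNAI2, 13.1% of TWIST1 and 21.5% of RUNX1. At the same step ZEB1 was at 50.3%, ZEB2 at 116% and SNAI1 at 197%.

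Further losses came within the NESC lines. In CHIR-P23, TWIST1 was at 26.9% and RUNX1 at 10.4% of CHIR-P6, and these were the 2 factors counted, against 4.28% of all genes lower and 1.39% higher. In FPKM itself PRRX1 (22.8%), RUNX2 (23.7%) and SNAI2 (45.8%) were also under 50% of CHIR-P6, from levels of 0.319, 1.14 and 3.6 FPKM. In C8-P7, SNAI2 and TWIST2 were lower than in CHIR-P23, against 2.39% of all genes lower and 1.04% higher, with TWIST2 at 8.28% of its CHIR-P23 level. In A9-P7, SNAI2 and TWIST2 were lower and TWIST1 was higher than in CHIR-P23, against 2.59% lower and 1.57% higher, with TWIST2 at 3.41% and TWIST1 at 304% of CHIR-P23. In FPKM itself SNAI1 (16.9%) and RUNX2 (44%) were also under 50% of CHIR-P23 in C8-P7, where RUNX1 was listed at 0. In A9-P7 the same held for SNAI1 (35.2%), PRRX1 (31.4%) and RUNX1 (4.75%). These losses started from CHIR-P23 levels of 1.39 FPKM for SNAI1, 0.308 for RUNX1, 0.27 for RUNX2 and 0.0727 for PRRX1. Both colonies are compared with the same CHIR-P23 libraries.

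**Figure D3:**
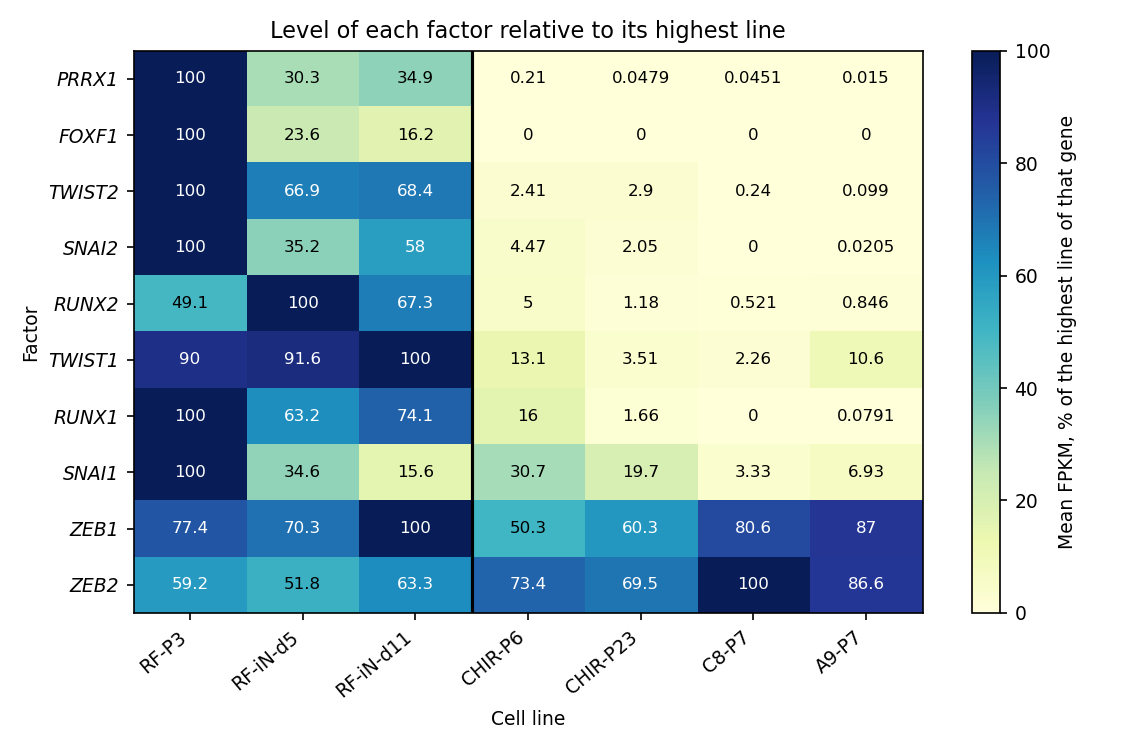
Mean FPKM of each factor in each line as a percentage of its highest line (numbers and colour); the black line parts earlier from NESC lines. PRRX1 and FOXF1 are already at 30.3% and 23.6% in RF-iN-d5, TWIST1 is at its highest in RF-iN-d11, and ZEB2 is at its highest in C8-P7.

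The make-up of the 10 factors was therefore turned over. Their summed level was 543, 315 and 350 FPKM in RF-P3, RF-iN-d5 and RF-iN-d11, and 48, 39.2, 41 and 44 FPKM in CHIR-P6, CHIR-P23, colony C8-P7 and colony A9-P7. ZEB1 and ZEB2 together held 5.52%, 8.51% and 10.3% of this sum in the earlier lines, and 55.2%, 71.7%, 95% and 85.6% in the NESC lines in the same order. The share of the ZEB pair grew with little change in its own level, which was 26.5 to 38.9 FPKM in the NESC lines and 26.8 to 36 FPKM in the earlier lines. The other 8 factors together had 21.5, 11.1, 2.03 and 6.34 FPKM in CHIR-P6, CHIR-P23, colony C8-P7 and colony A9-P7, against 513, 288 and 314 FPKM in RF-P3, RF-iN-d5 and RF-iN-d11. At 1 FPKM or more there were 10, 10 and 9 of the factors in the earlier lines and 8, 6, 3 and 3 in the NESC lines, the 3 in each colony being TWIST1, ZEB1 and ZEB2.

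**Figure D4:**
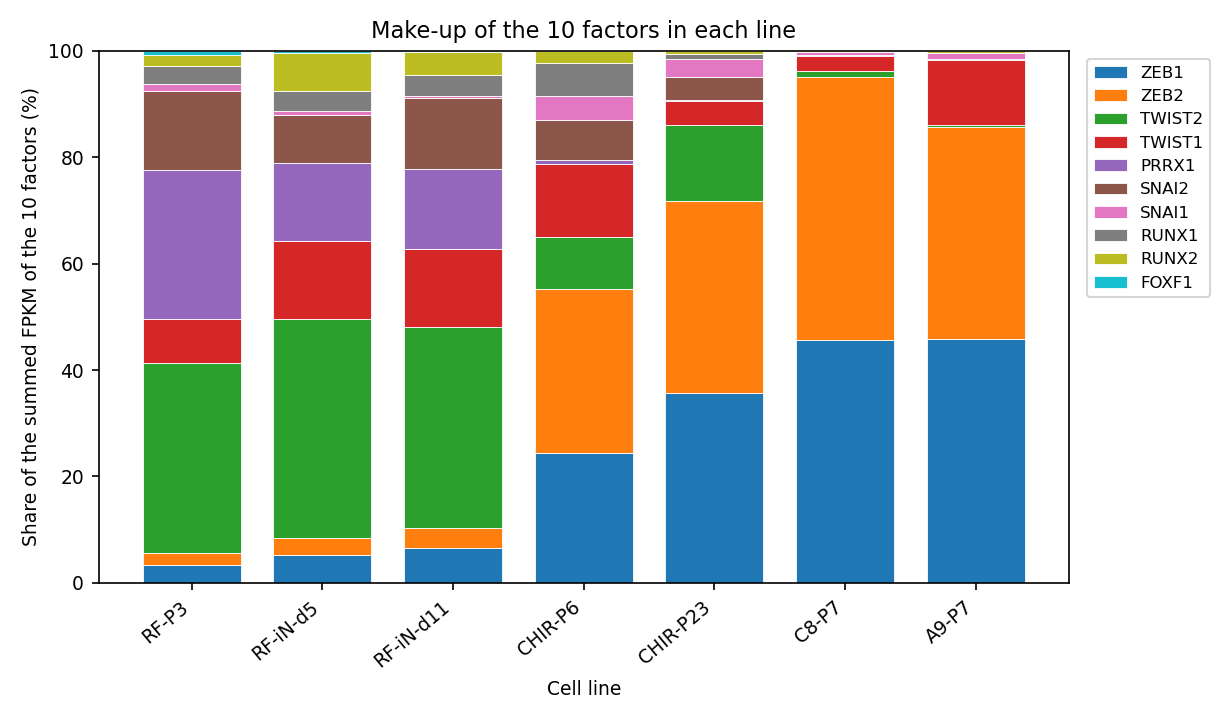
Share of the summed FPKM of the 10 factors held by each of them (stacked bars, percent) in the 7 lines. TWIST2 and PRRX1 lead in RF-P3, and the ZEB pair holds 5.52% there, 55.2% in CHIR-P6 and 95% in C8-P7.

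Across the 7 lines, the profiles of the called factors were alike, in part because all were low in the NESC lines, and those of the ZEB pair were not like them. Pearson's r on log2(FPKM + 1) was 0.99 for SNAI2 with TWIST2 and with RUNX1, 0.96 for PRRX1 with TWIST2 and for RUNX2 with TWIST1, and 0.90 for FOXF1 with PRRX1, the lowest values among the called factors being 0.75 for FOXF1 with RUNX2 and 0.77 for FOXF1 with TWIST1. SNAI1, which was not called, had 0.60 to 0.84 with the called factors. The value was 0.09 for ZEB1 with ZEB2 and -0.91 for ZEB2 with TWIST2. These values describe 7 successive lines that share 1 source. Among 10283 other genes that reached 5 FPKM in some line, the closest profiles by r were CREB3L1, PSMB8 and TMEM119 for PRRX1 (all 1.000), MYOF (0.999), COL5A1 (0.998) and PRKCDBP (0.996) for TWIST2, and ELOVL1 (0.999), KIAA1217 and ARPC1B (both 0.997) for SNAI2. CREB3L1 is an endoplasmic reticulum factor known for collagen production in bone, and COL5A1 a fibrillar collagen. For TWIST1 they were WBP1L, GIT2 (both 0.994) and HSD17B11 (0.993), for SNAI1 DLD (0.995), FOPNL and RASD2 (both 0.992), and for FOXF1, among 10284 genes, ITGA11, ERP44 and CEMIP (all 0.999), of which ITGA11 is a collagen receptor subunit. RUNX1 was closest to KYNU (0.999), CCDC93 and NAAA (both 0.997), and RUNX2 to HERC3, CDA and FYCO1 (all 0.997). ZEB1 was closest to RNF146 (0.977), ENTPD4 (0.962) and ARHGAP12 (0.953), and ZEB2 to CHCHD5 (0.991), CBARP and AFG3L2 (both 0.975). A second measure was the distance between levels scaled to the highest line of each gene. By it KYNU for RUNX1, CHCHD5 for ZEB2 and ARHGAP12 for ZEB1 ranked 1, and CREB3L1 for PRRX1 ranked 3. Far down were FOPNL (4917) and DLD (2078) for SNAI1, FYCO1 for RUNX2 (3293), CBARP for ZEB2 (2187) and CCDC93 for RUNX1 (2163). A high r therefore did not always go with similar relative levels.

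Several close relatives of the factors fell too. Of 6 tested, 4 were lower and none was higher (limma, none higher at an unadjusted p under 0.05 either). PRRX2, the paralogue of PRRX1, had 56.1, 13.5 and 11.3 FPKM in RF-P3, RF-iN-d5 and RF-iN-d11, and 0.896, 0.523, 0.271 and 1.32 FPKM in CHIR-P6, CHIR-P23, colony C8-P7 and colony A9-P7, with a log2 difference of -3.66 (SE 0.53, adjusted p = 0.0021). HAND2, a bHLH relative of the TWIST genes, had a mean of 0.186 ± 0.184 FPKM over the NESC lines (SD, n = 4) and 6.01 ± 5.42 FPKM over the earlier lines (SD, n = 3), with a log2 difference of -2.30 (limma adjusted p = 0.0073). FOXF2 (-1.20, adjusted p = 0.024) and RUNX3 (-1.14, adjusted p = 0.048) were called close to the limits. HAND1 was not called (-1.46, adjusted p = 0.33). RF-P3 had 0.55 FPKM of it, RF-iN-d5 had 20.2, RF-iN-d11 had 11.1, CHIR-P6 had 10.5, CHIR-P23 had 3.36 and A9-P7 had 0.0173, and it was listed at 0 for C8-P7. The neural Scratch genes of the Snail family were low throughout, SCRT2 reaching 1.57 FPKM in CHIR-P6 (0.60, adjusted p = 0.15) and SCRT1 0.891 FPKM there, and SNAI3 did not exceed 0.0868 FPKM. Only PRRX2 kept its call at a pseudocount of 5, and leaving out RF-P3, RF-iN-d5, CHIR-P23, C8-P7 or A9-P7 in turn left 2 of these 4 calls.

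The partners with which these proteins bind DNA did not share one direction. CBFB, the common partner of the RUNX proteins, had a mean of 32.4 ± 3.99 FPKM over the NESC lines (SD, n = 4) and 32.3 ± 1.97 FPKM over the earlier lines (SD, n = 3), with a log2 difference of -0.00 (SE 0.13, limma adjusted p = 0.99). RUNX1T1 was listed beside these partners as a corepressor known from a leukaemia fusion with RUNX1, and not as a partner in binding DNA. RUNX1T1 fell to 1.03 ± 0.748 FPKM over the NESC lines (SD, n = 4), against 5.54 ± 0.0797 FPKM over the earlier lines (SD, n = 3), with a log2 difference of -1.76 (limma adjusted p = 0.0036). Of the E proteins, which pair with TWIST1 and TWIST2, TCF4 had 17.5, 15.3, 16.1 and 17 FPKM in CHIR-P6, CHIR-P23, colony C8-P7 and colony A9-P7, against 36.9, 52.9 and 55.2 FPKM in RF-P3, RF-iN-d5 and RF-iN-d11 (log2 difference -1.48, SE 0.16, limma adjusted p = 7.2e-04). TCF12 had the opposite change, with 110, 96.9, 90 and 83.2 FPKM in the same NESC lines, against 36.6, 46.2 and 53.4 FPKM in the earlier lines (1.06, SE 0.16, limma adjusted p = 0.0026). This call was lost without CHIR-P6, without RF-P3 and at a pseudocount of 5. TCF3 was at 34.8 ± 5.97 FPKM over the NESC lines (SD, n = 4) and 19.2 ± 1.79 FPKM over the earlier lines (SD, n = 3), a log2 difference of 0.81 (limma adjusted p = 0.0072) that is under the minimum size.

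The ID proteins, which bind E proteins and keep them from DNA, were not called with all 7 lines, and their levels varied widely among the earlier lines. ID4 was called higher without RF-P3 and with the replicate block, and ID1 was called lower with the replicate block. For ID1, RF-P3 had 212 FPKM, RF-iN-d5 had 11.5, RF-iN-d11 had 17.4 and the NESC lines had 5.73 to 19.2 (log2 difference -1.83, limma adjusted p = 0.16), and ID3 had 263, 16.9 and 62.6 FPKM in the earlier lines (-1.16, adjusted p = 0.30). For ID2 the log2 difference was -0.18 (adjusted p = 0.90) and for ID4 1.58 (adjusted p = 0.12), ID4 being highest in C8-P7 at 46.1 FPKM. All 4 were lower in RF-iN-d5 than in any other earlier line.

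**Figure D5:**
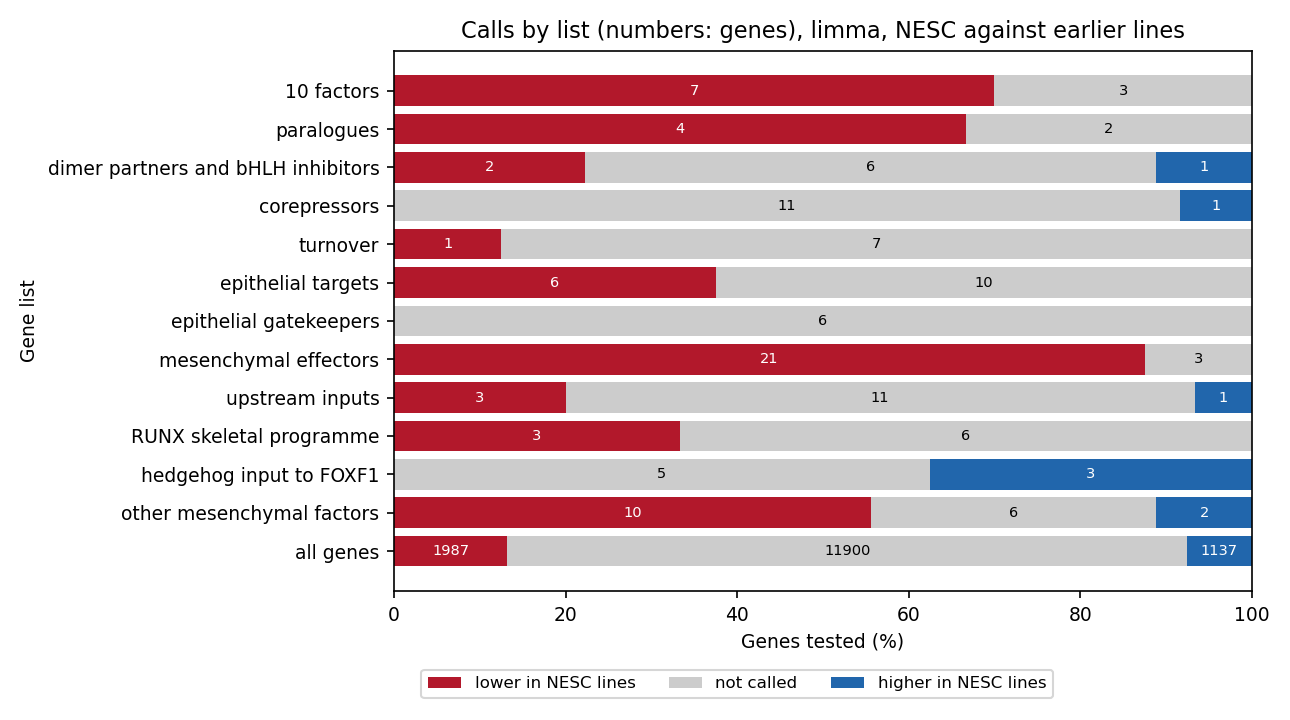
Percent of the tested genes of each list, marker lists left out, that were lower, not called or higher in the NESC lines (limma; numbers are genes). The 10 factors (7 lower of 10) and the mesenchymal effectors (21 lower of 24) hold the largest shares of lower genes among the lists drawn, beside 13.2% of all genes.

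Corepressors that the transition factors recruit were mostly not called. Of 12, 1 was higher and none lower (limma), with a median log2 difference of 0.25, beside 7.57% of all genes higher and 13.2% lower. At an unadjusted p under 0.05, 5 were higher (EZH2, HDAC2, KDM1A, SIN3A and SMARCA4) and none lower, and the same number was called with no fold minimum. EZH2, the methyltransferase of Polycomb complex PRC2, had a mean of 92.2 ± 20.7 FPKM over the NESC lines (SD, n = 4) and 27 ± 9.95 FPKM over the earlier lines (SD, n = 3), with a log2 difference of 1.77 (limma adjusted p = 0.0032). HDAC2, a histone deacetylase, and KDM1A, a histone demethylase that binds Snail proteins, had log2 differences of 0.51 (limma adjusted p = 0.02) and 0.76 (adjusted p = 0.0039), under the minimum size of the call. Of 8 genes that act on the stability of these proteins, 1 was lower, PRKD1, a kinase that phosphorylates Snail (-2.02, limma adjusted p = 0.015), and none was higher (2 at an unadjusted p under 0.05). The ubiquitin pathway genes USP47 (-0.21) and FBXO11 (-0.12) were not called. The 1 lower gene of 8 stands beside 13.2% of all genes called lower.

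Of 24 mesenchymal effector genes, 21 were lower and none higher (limma, none higher at an unadjusted p under 0.05 either), with a median log2 difference of -4.33. The 4 largest differences were those of COL1A2 (-9.65), COL1A1 (-9.13), COL3A1 (-8.32) and S100A4 (-7.95), which are 3 fibrillar collagen genes and a calcium-binding protein. These 4, PDGFRA and THY1 are also among the 9 fibroblast markers, so the 2 lists are not separate results. CDH2, which encodes N-cadherin and is also a cadherin of the neural epithelium, was not called (1.75, adjusted p = 0.11), but was called higher without RF-P3 and with the replicate block. It had 140, 30.4 and 9.87 FPKM in RF-P3, RF-iN-d5 and RF-iN-d11, and 76.2, 121, 174 and 133 FPKM in CHIR-P6, CHIR-P23, colony C8-P7 and colony A9-P7. TAGLN, of the contractile cytoskeleton, was not called either (-3.39, adjusted p = 0.18).

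Of 16 tested epithelial genes that these factors are known to repress, none rose (limma, 1 higher at an unadjusted p under 0.05, MUC1, which was called higher with quantile normalization, at a pseudocount of 0.1 and with no fold minimum) and 6 fell (KRT19, KRT18, CLDN4, LLGL2, OCLN and ST14), 4 of these by log2 differences of -4.66, -4.45, -1.68 and -1.57 for KRT19, KRT18, CLDN4 and LLGL2. The count of 6 depends on single lines, being 10 without RF-P3, 3 without CHIR-P6 or CHIR-P23, and 2 without RF-iN-d5, RF-iN-d11, C8-P7 or A9-P7. KRT18 and ST14 were called lower whichever line was left out. The count was 1 at a pseudocount of 5 (KRT18), 2 with no filter on low values and 9 with the replicate block. Several of them were highest in the RF-iN lines, when TWIST1 and TWIST2 were still high, but KRT18, KRT8 and PKP2 were highest in RF-P3. In RF-P3, RF-iN-d5 and RF-iN-d11, KRT18 had 400, 47.2 and 32.1 FPKM and KRT8 had 255, 36.7 and 26.8. PKP2 had 15.2, 3.19 and 1.5 FPKM there. The summed level of the 20 listed genes found was 689, 350 and 293 FPKM in these lines, and 26.3 to 102 FPKM in the NESC lines. For KRT19, a simple epithelial keratin, RF-P3 had 0.469 FPKM, RF-iN-d5 had 169, RF-iN-d11 had 146, CHIR-P6 had 0.459 and CHIR-P23 had 1.05, and both colonies were listed at 0. CLDN4 (6.12 and 8.39 FPKM in RF-iN-d5 and RF-iN-d11) and LLGL2 (4 and 6.8 FPKM), genes of tight junctions and of cell polarity, were under 1 FPKM in RF-P3 and at or below 1.05 FPKM in every NESC line. KRT8 (-1.57, adjusted p = 0.21) and the junction gene JUP (-1.56, adjusted p = 0.054) were not called. EPCAM did not exceed 2.89 FPKM in any line, and CDH1 was not analysed here.

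The epithelial gatekeepers, factors that oppose the ZEB and Snail proteins, were low throughout. Of 6 tested none was called (limma, 1 lower and none higher at an unadjusted p under 0.05), and GRHL2, OVOL1 and ESRP1 were under 1 FPKM in every line. GRHL1 had a log2 difference of 0.42 and GRHL3 of -0.79. Without RF-P3, 3 of these genes were called lower. The summed level of the 9 listed genes was 1.82 to 2.8 FPKM in the NESC lines, and 0.243, 6.05 and 12.5 FPKM in RF-P3, RF-iN-d5 and RF-iN-d11.

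Among 15 genes upstream of the factors, mostly of TGF-β signalling, 3 were lower and 1 was higher, beside 13.2% and 7.57% of all genes. Whether this list departs from those shares was not tested. At an unadjusted p under 0.05 (limma), 7 were lower and 4 higher (HMGA2, SMAD4, TGFBR1 and YBX1). Leaving out RF-P3, RF-iN-d5 or RF-iN-d11 in turn gave 4 lower and 1 higher. TGFBR2, the type II receptor, had 20.7, 5.86, 1.57 and 1.18 FPKM in CHIR-P6, CHIR-P23, colony C8-P7 and colony A9-P7, against 38.9, 102 and 128 FPKM in RF-P3, RF-iN-d5 and RF-iN-d11 (log2 difference -3.91, SE 0.81, limma adjusted p = 0.009). The ligands TGFB1 (-3.80, adjusted p = 7.3e-04) and TGFB3 (-2.39, adjusted p = 0.013) were lower. HMGA2, a chromatin protein that can induce SNAI1 and TWIST1, was higher, at 128 ± 35.4 FPKM over the NESC lines (SD, n = 4) and 32.5 ± 6.71 FPKM over the earlier lines (SD, n = 3), with a log2 difference of 1.91 (limma adjusted p = 0.0013). TGFBR1, the type I receptor (0.61), and YBX1, an RNA-binding protein (0.42), were not called.

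Genes of the skeletal programme of RUNX2 took several courses, and whether they follow it as a group was not tested. Of 9 tested, 3 fell (MMP13 -2.22, DLX5 -2.19 and MSX2 -1.27, limma adjusted p of 0.017, 0.0013 and 0.029) and none rose (1 at an unadjusted p under 0.05, ALPL). Among all genes, 13.2% were called lower and 7.57% higher. Of the 3 that fell, MMP13 (11 FPKM) and MSX2 (3.27 FPKM) were highest in RF-iN-d5, as was RUNX2, and DLX5 in RF-P3 (5.13 FPKM). At a pseudocount of 5 none of the 3 calls remained and ALPL was called higher, as it was with quantile normalization and with the replicate block. The call of MSX2 was lost when an RF-iN line, CHIR-P6 or a colony was left out, and 5 genes, SPP1 included, were lower without RF-P3. SPP1, which encodes osteopontin, was highest in the RF-iN lines, as was RUNX2, and was not called with all lines (-3.94, adjusted p = 0.20). For SPP1, RF-P3 had 4.38 FPKM, RF-iN-d5 had 1320, RF-iN-d11 had 2456, CHIR-P6 had 51.8, CHIR-P23 had 119, C8-P7 had 3.01 and A9-P7 had 2.19. ALPL, an alkaline phosphatase of bone and of stem cells, was at 16 to 45.7 FPKM in the NESC lines, above the 0.593 to 11.8 FPKM of the earlier lines (2.07, adjusted p = 0.063). The osteoblast factor SP7 did not exceed 1 FPKM in any line.

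FOXF1 is a target of hedgehog signalling in mesenchyme, and 3 of 8 genes of that pathway were higher while none was lower (limma, 1 lower at an unadjusted p under 0.05). Means of the receptors PTCH1 and SMO were 23.3 ± 10.8 and 35.3 ± 7.33 FPKM in NESC (SD, n = 4 lines), against 3.67 ± 1.99 and 7.83 ± 1.95 FPKM over the earlier lines (SD, n = 3), with log2 differences of 2.32 and 2.04 (limma adjusted p = 0.007 and 6.7e-04). GLI3, a transcription factor of the pathway, had a log2 difference of 1.27 (adjusted p = 0.0087). SUFU (0.44) and GLI2 (0.51) were not called. The gene lower at an unadjusted p under 0.05 was GLI1 (-0.64, limma adjusted p = 0.068). It was at 0.102 to 0.565 FPKM in the NESC lines, below the 0.717 to 1.64 FPKM of the earlier lines. Without RF-P3, 1 gene of the pathway was called lower. The activity of the pathway was not tested.

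Other transcription factors of mesenchyme mostly fell with the 10. Of 18 tested, 10 were lower and 2 higher, with a median log2 difference of -1.21, and at a pseudocount of 5 there were 5 lower and 1 higher. TBX15 (-3.69), TBX3 (-3.56), HIC1 (-3.14) and OSR1 (-2.84) had the largest differences (limma adjusted p from 5.1e-04 to 0.0027). TBX15, a T-box factor of skeleton and skin, had 19.7, 17.7 and 21 FPKM in RF-P3, RF-iN-d5 and RF-iN-d11, and 4.17 and 0.15 FPKM in CHIR-P6 and CHIR-P23. SIX2 (0.96) was not called. The 2 that were higher, MEOX1 (2.64, adjusted p = 0.019) and FOXC1 (1.53, adjusted p = 0.042), were named after their values were seen, and neither call remained without RF-iN-d5, without CHIR-P23 or without A9-P7.

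Markers of other cell types were read beside these genes. Of 10 neural crest markers tested, 3 were higher (PAX3, PAX7 and SOX8) and 3 lower (ETS1, MSX1 and NGFR), with 1 higher without RF-iN-d5, and the defining genes SOX10 and FOXD3 did not exceed 0.0216 FPKM in any line. The summed level of 12 neural crest markers was 13.6 to 42.7 FPKM in the NESC lines and 57.5 to 112 FPKM in the earlier lines. MSX1 and ETS1 made up most of it in the earlier lines, with 55.7 and 51.6 FPKM in RF-P3. The sum therefore does not describe the list as a whole: PAX3 had 0 to 0.935 FPKM in the earlier lines and 1.59 to 26.4 FPKM in the NESC lines. Among endothelial markers 2 of 5 were lower (TEK, and PECAM1, which lost its call when any line except RF-P3 was left out, CLDN5 being called lower without RF-iN-d5), among smooth muscle markers 1 of 4 (SMTN), among cartilage markers 1 of 3 was higher (COL2A1), and of 4 keratinocyte markers none was called (limma, 1 lower at an unadjusted p under 0.05). These counts stand beside 13.2% of all genes called lower and 7.57% higher. The summed level of 6 smooth muscle markers was 720, 27.1 and 13.9 FPKM in RF-P3, RF-iN-d5 and RF-iN-d11, and 7.18 to 183 FPKM in the NESC lines. The part of other cell types in the differences of the factors was not tested.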

How the data were processed

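The authors deposited FPKM values for 33737 gene loci, from libraries depleted of ribosomal RNA. The submitters' processing notes name Mmul_8.0.1 as the build and list Cuffnorm 2.2.1, Cufflinks 2.2.1 and HISAT2 2.1.0 as tools. Read counts were not used here, so no count model was run. For 28445 loci, all 10 factors included, the deposited FPKM stood 1 position below their gene label. These values were moved back and 49 loci were left out. Of 1627 genes in a supplementary table of the study, 1481 (91%) then matched in all 7 averages within 0.3 on the log2 scale, against 144 (8.85%) as labelled.

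Whole-read steps in low FPKM values gave the relative depth and the noise between the libraries of a line. The squared difference of a pair was 0.0923 to 0.109 of that expected from counting noise, and pairs were averaged. NESC and earlier lines were compared on log2(FPKM + 1) with limma 3.58.1 (R 4.3.3), with an intensity trend, 5 residual degrees of freedom and Benjamini-Hochberg adjustment over all 15024 genes. The fit and the noise measure were tested on simulated data. Steps between single lines have no test. Alternatives were other pseudocounts, filters and scalings, no trend, no fold minimum, single libraries, each line left out, a replicate block and summed loci.

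The 10 factors and all gene lists were chosen from general knowledge, with earlier results of these data known. All members, relatives and partners are named, and from other lists up to 4 called genes by size and 2 uncalled genes by level. For likeness, the 3 genes of highest r are named. CDH1, PATJ and FENDRR were not analysed here. The value of 1 further gene that this rule would name is not reported here. No sequences or genome positions were used. Python 3.11.15, NumPy 2.4.6, pandas 2.3.3 and Matplotlib 3.10.9 were used for tables and figures.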

Additional observations from a re-analysis of the deposited data

Results flagged for a closer look

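Among the 4 NESC lines, 21 of the factors, relatives and partners reached 1 FPKM and were searched for a line far from the other three by Dixon's test, which chance alone passes in about 1 of 20 groups. CHIR-P6 stood apart in 4 of them. RUNX1 had 2.95 FPKM in CHIR-P6, against 0 to 0.308 FPKM in the other NESC lines, and RUNX2 had 1.14 FPKM, against 0.119 to 0.27 FPKM. RUNX3, the remaining RUNX gene, had 1.69 FPKM, against 0 to 0.0471 FPKM. All 3 RUNX genes were thus highest in the earliest NESC line. SCRT2, a Scratch gene of the Snail family, had 1.57 FPKM in CHIR-P6, against 0.251 to 0.341 FPKM in the other NESC lines.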

How the results depend on the processing

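None of the 10 factors changed direction under 20 alternatives. SNAI2, TWIST1, TWIST2, PRRX1, RUNX1 and RUNX2 were called lower in all 20, and SNAI1, ZEB1 and ZEB2 in none. Some of the 20 could hardly change a call. Dropping the fold minimum cannot lose a call, and no factor had more than 1 locus to sum. Single libraries nearly repeat the mean of a pair, as paired libraries differ by less than counting noise. For ZEB2 the limma adjusted p was under 0.05 with equal library totals (0.03), equal upper quartiles (0.025) and quantile normalization (0.021). It was also under 0.05 with a filter at 5 FPKM (0.049) and the replicate block (0.014). Its log2 difference was at most 0.58 in any alternative, under the minimum size. FOXF1 was called in 13 of the 19 in which it was tested. Its call was lost at a pseudocount of 5 (-0.46), with quantile normalization (-1.20) and without RF-P3, CHIR-P23, C8-P7 or A9-P7 (-1.42 to -0.91), so leaving out 1 line gave 6 or 7 lower factors. Among all genes, 1137 were higher and 1987 lower; a pseudocount of 5 gave 501 and 1115, no fold minimum 2522 and 3094, and leaving out 1 line 868 to 1238 and 1628 to 2218. Quantile normalization moved the median of all genes to 0.15 and the split to 1621 higher and 1668 lower. At a pseudocount of 0.1, the steps had 5 lower factors for CHIR-P23 against CHIR-P6, 4 for C8-P7 and 4 for A9-P7 against CHIR-P23, and 1 for RF-iN-d11 against RF-iN-d5, and 1 higher for RF-iN-d5 against RF-P3 (also with quantile normalization). At a pseudocount of 5 these steps had 0 lower for CHIR-P23 and for C8-P7, 1 lower and 0 higher for A9-P7, and 2 lower for RF-iN-d5. With the replicate block on 14 libraries, 1243 genes were higher and 2288 lower, with 7 lower factors and no call of a factor changed. Differences between the libraries of a line correlated between lines at -0.03 to 0.06, over 0.1 in 0 of 21 pairs, so libraries share only a number. FPKM tables without counts give no interval for values near 0, and the shallowest line, RF-P3, limits low values most. C8-P7, at a relative depth of 1.27 and 1.28, was also far shallower than CHIR-P23 (4.74) and A9-P7 (5.31 and 5.3). The values of 0 in C8-P7 therefore cannot be told from the A9-P7 values of 0.0165 FPKM for SNAI2 and 0.0146 FPKM for RUNX1.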
